A study of Mus musculus with 26 samples.

Results

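The regions described here are 8260 sites in the genome of mouse 3T3-L1 adipocytes at which a peak of ATF2 coincided with a peak of JUND, FOSL2 or both, and at which neither C/EBP factor (CEBPa or CEBPb) had a peak. They were defined by joining the deposited peaks of the 5 factors, each a 200 bp window, wherever windows overlapped by at least 1 bp, and then by which factors each joined site held. They make up 16.6% of the 49656 factor sites, 34.2% of the 24174 sites with ATF2 and 65.7% of the 12577 sites that held ATF2 together with an AP-1 subunit. They are called ATF2/AP-1 sites below.

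3T3-L1 is a mouse fibroblast line that is differentiated into fat cells in culture. The mature adipocytes were untreated or treated with rosiglitazone at 1 µM, dissolved in DMSO. Rosiglitazone is an antidiabetic drug that activates the nuclear receptor PPARγ. ChIP-seq peak lists were used from 1 untreated library for each of the 5 factors, from 2 untreated and 2 rosiglitazone libraries for MED1, and from 1 untreated and 1 rosiglitazone library each for CBP, p300 and NCOR. How long the ChIP-seq cells were treated is not in the labels, and words inside the peak names differ between lists, so the times may not be the same. Factor binding was measured in untreated cells only, so whether ATF2, JUND, FOSL2 or C/EBP moved after the drug was not measured.

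AP-1 is a family of basic leucine zipper dimers built from JUN, FOS and ATF proteins, and ATF2 can pair with JUN proteins. JUND is a JUN subunit, and FOSL2 is a FOS subunit that needs a JUN partner to bind DNA. C/EBP factors are also leucine zipper proteins and, with PPARγ, drive and maintain the fat cell programme. MED1 is a subunit of Mediator, which links enhancers to RNA polymerase II, CBP and p300 are related histone acetyltransferases that act as coactivators, and NCOR is a corepressor that works with histone deacetylases.

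Both AP-1 subunits were present at 4576 of the ATF2/AP-1 sites (55.4%). JUND occurred without FOSL2 at 2972 sites (35.98%), and FOSL2 without JUND at 712 sites (8.62%). The sites were compact, with a median width of 234 bp and a range from 200 to 559 bp. The centres of the ATF2 and JUND windows lay a median of 25 bp apart, and 77.2% of 7548 such pairs were within 50 bp. For ATF2 and FOSL2 the median was 29 bp over 5288 pairs, and for JUND and FOSL2 it was 17 bp over 4576 pairs. The 3 windows therefore mostly covered the same stretch of DNA. ATF2 peaks at these sites stood at the median percentile 54.9 of the ATF2 list by the authors' peak score, against 78.9 where C/EBP was present too and 30.9 where ATF2 stood with neither AP-1 nor C/EBP. These factor values follow from the lists that chose the sites and are given as description.

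The rule has sharp edges, and the sites beside them can be compared directly. At 128 ATF2/AP-1 sites a C/EBP window began within 100 bp without touching the site, and CBP held 61.7% of them untreated (95% Wilson interval 53.1 to 69.7). At 45 sites that were left out because C/EBP overlapped ATF2 or AP-1 by 50 bp or less, CBP held 27 (45.45% to 73.0%). NCOR held 60.2% of the former and 77.8% of the latter. On the AP-1 side, CBP held 50.8% of the 120 included sites whose ATF2 and AP-1 windows overlapped by 50 bp or less. It held 33.8% of the 231 ATF2 sites that were left out because AP-1 lay beside them, within 100 bp.

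Before treatment, about as many ATF2/AP-1 sites carried the acetyltransferases as carried the corepressor, in the lists as deposited. These lists differed in length, with 15383 peaks for CBP, 15007 for p300 and 25136 for NCOR. Over all factor sites they held 27.02%, 25.12% and 34.79%. NCOR was thus more frequent than the acetyltransferases over all factor sites, while its share lay between theirs at the ATF2/AP-1 sites. CBP held 4198 of them, 50.8% (49.7 to 51.9), p300 held 3729, 45.15% (44.1 to 46.2), and NCOR held 3991, 48.3% (47.2 to 49.4). MED1 was less frequent and its replicates differed, with 1577 sites (19.1%, 18.3 to 19.95) in replicate 1 and 790 sites (9.56%, 8.95 to 10.2) in replicate 2. Of all 8260 sites, 1723 (20.9%) were in none of the 10 cofactor lists, against 46.4% of all factor sites, and 161 (1.95%) were in all 10, against 1.96%. Intervals here and below cover counting error only.

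In each of the 10 lists these levels lay below those of sites where C/EBP joined ATF2 and AP-1, and above those of sites with ATF2 or AP-1 by itself. Where ATF2 and AP-1 were joined by C/EBP (4317 sites), untreated CBP held 82.0%, p300 75.4%, NCOR 86.3% and MED1 38.2% and 34.3% in replicates 1 and 2. Where ATF2 stood alone, with neither AP-1 nor C/EBP (8376 sites), CBP held 21.2%, p300 21.05%, NCOR 32.7% and MED1 7.25% and 4.11%. Where AP-1 stood without ATF2 or C/EBP (17108 sites), the shares were 6.90% for CBP, 6.66% for p300, 8.62% for NCOR and 1.71% and 0.994% for MED1. This order was not particular to sites with AP-1. With C/EBP in place of AP-1, shares also lay below those of sites with ATF2, AP-1 and C/EBP. They lay above those of sites with ATF2, AP-1 or C/EBP by itself, in each of the 10 lists. Sites with ATF2 and C/EBP but no AP-1 (3221 sites) were close to the ATF2/AP-1 sites for CBP, at 50.9% untreated, and for p300, at 45.6%. They were higher for NCOR, at 71.1%, lower for MED1 in untreated replicate 1, at 15.8%, and higher for it in untreated replicate 2, at 19.2%. Where C/EBP stood without ATF2 or AP-1 (7471 sites), untreated CBP held 10.6%, p300 11.2% and NCOR 34.1%. Sites of these classes differed in width, with medians of 259 bp for ATF2 and AP-1 with C/EBP and 200 bp for ATF2 alone and for AP-1 without ATF2, so a wider site had more room to meet a cofactor window.

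**Figure D1:**
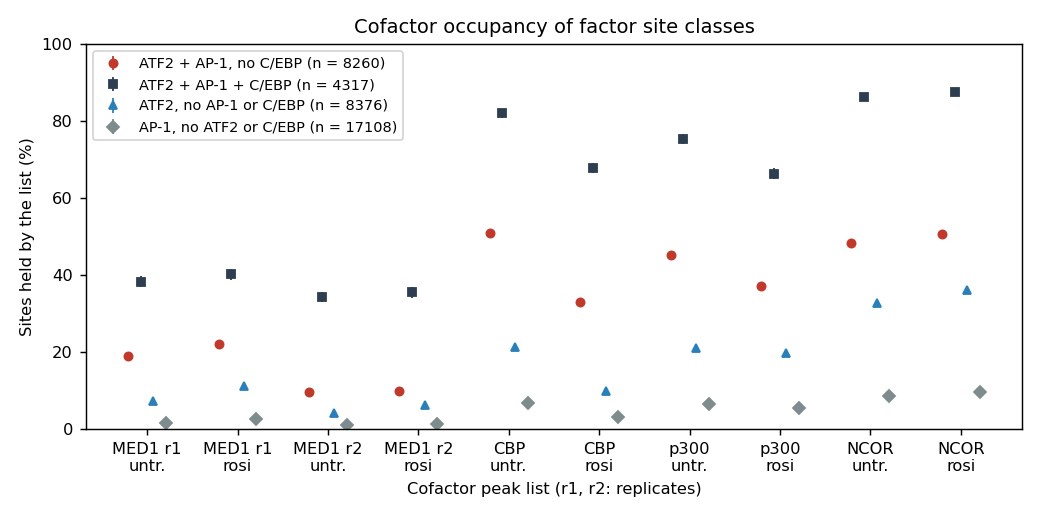
Share of sites held by each of the 10 cofactor peak lists, in percent, for the ATF2/AP-1 sites (circles) and for sites with C/EBP too, ATF2 alone and AP-1 without ATF2. Vertical bars are 95% Wilson intervals, many smaller than the symbols. The ATF2/AP-1 sites sit between the class with ATF2, AP-1 and C/EBP and the classes with 1 factor family in every list, at 50.8% for untreated CBP against 82.0%, 21.2% and 6.90%.

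MED1, the cofactor with replicates, allowed a test of this order over its 4 lists. The ATF2/AP-1 share was lower than that of the class with ATF2, AP-1 and C/EBP in 4 of 4 lists, by a mean log2 ratio of -1.38 ± 0.52 (SD, n = 4 lists). It was higher than at ATF2 alone in 4 of 4 lists, by 1.06 ± 0.32, and higher than at AP-1 without ATF2 in 4 of 4 lists, by 3.14 ± 0.30. The exact two-sided sign-flip test gave p = 0.125 for each of the 3 comparisons, adjusted p = 0.125, which is the smallest value that 4 lists allow and does not pass 0.05. The labels do not say whether the MED1 replicates are separate cultures, so p-values measure only the spread between these libraries, which may be technical.

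Many ATF2/AP-1 sites held several cofactors at once. In untreated cells CBP, p300 and NCOR were all present at 2124 sites (25.7%), against 14.9% of all factor sites. This was the most frequent combination after none of the 3, at 2421 sites (29.3%). NCOR was the lone cofactor of the 3 at 745 sites, CBP at 728 and p300 at 411. MED1 was most frequent where the other 3 met, as it was over all factor sites (44.1% in replicate 1 and 31.8% in replicate 2). At the ATF2/AP-1 sites its replicate 1 list held 44.9% of the sites with all 3, 32.2% of those with CBP and p300 but not NCOR, 15.1% of those with p300 alone, 6.31% of those with NCOR alone, 5.22% of those with CBP alone and 2.93% of those with none. Replicate 2 gave 20.6%, 10.2%, 7.54%, 5.50%, 3.98% and 3.22% for the same combinations.

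Cofactor occupancy followed the rank of the ATF2 peak. From the lowest to the highest of 4 equal bands of the ATF2 list by score, untreated CBP held 29.3%, 43.7%, 56.0% and 68.1% of the ATF2/AP-1 sites, and untreated NCOR held 26.8%, 40.1%, 53.6% and 66.5%. Untreated MED1 in replicate 1 went from 7.83% in the lowest band to 30.4% in the highest. For CBP and NCOR the order of ATF2 alone, ATF2/AP-1 sites and sites with C/EBP too was the same within each of the 4 bands. In the highest band, CBP held 68.1% of ATF2/AP-1 sites (66.1 to 70.0), 89.1% of sites with C/EBP too (87.8 to 90.3) and 36.01% of sites with ATF2 alone (32.6 to 39.6). NCOR differed less between the last and the first of these, holding 66.5% of ATF2/AP-1 sites (64.5 to 68.5) and 54.4% of sites with ATF2 alone (50.8 to 58.1) in that band.

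**Figure D2:**
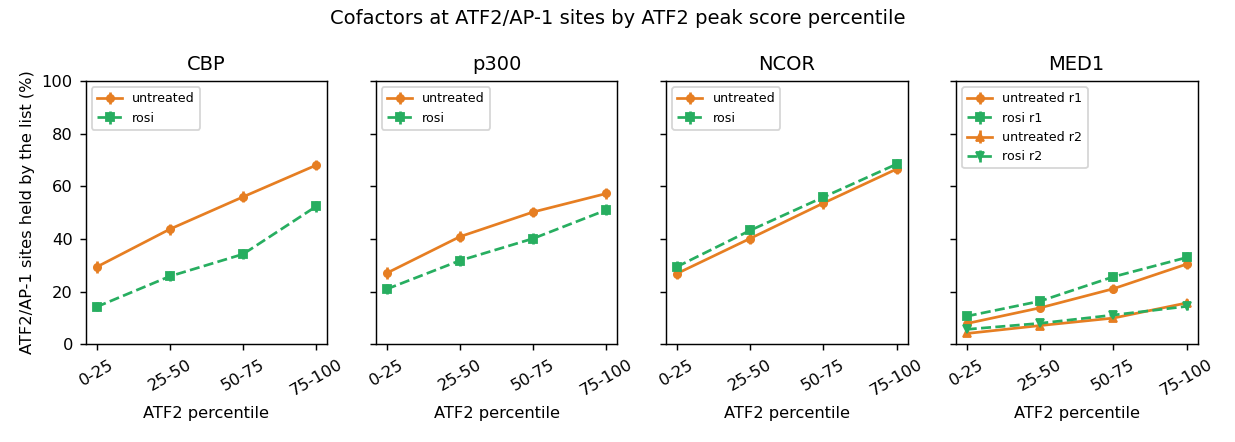
Share of the ATF2/AP-1 sites held by each cofactor list, in percent, against the percentile of the ATF2 peak score within the ATF2 list in 4 bands. Bars are 95% Wilson intervals, circles and solid lines are untreated lists and squares and dashed lines rosiglitazone lists, and MED1 replicate 2 is drawn with triangles. All 10 lists hold a larger share at higher ATF2 percentiles, from 29.3% to 68.1% for untreated CBP, and the CBP curves lie farther apart than those of NCOR.

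Sites with both AP-1 subunits held CBP and p300 more often than sites with JUND and no FOSL2, while NCOR was at nearly the same share of both. Untreated CBP held 58.3% of sites with JUND and FOSL2 (56.85 to 59.7), 43.5% with JUND and no FOSL2 (41.7 to 45.3) and 33.4% with FOSL2 and no JUND (30.1 to 37.0). Untreated p300 held 49.0% (47.55 to 50.4), 41.7% (39.96 to 43.5) and 34.7% (31.3 to 38.3). Untreated NCOR held 48.9% (47.5 to 50.4), 49.5% (47.7 to 51.3) and 39.75% (36.2 to 43.4) of the same groups. Untreated MED1 was also close in the first and second of these groups, at 19.3% and 20.0% in replicate 1 and 9.31% and 10.4% in replicate 2.

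The overall shares of NCOR and MED1 hid opposite differences by ATF2 rank. In the lowest band of ATF2 peaks, NCOR held 22.9% of sites with both subunits (20.2 to 25.8) and 34.65% of sites with JUND and no FOSL2 (30.6 to 38.9). In the highest band it held 70.2% (67.7 to 72.5) and 60.2% (56.7 to 63.7). MED1 showed the same crossing in both untreated lists. Replicate 1 held 5.81% and 11.1% in the lowest band, and 33.1% and 25.2% in the highest. Replicate 2 held 1.97% and 7.72% in the lowest band, and 17.45% and 12.8% in the highest. p300 held 26.6% (23.75 to 29.65) and 30.9% (27.02 to 35.05) in the lowest band, where the intervals overlap, and 64.45% (61.9 to 66.9) and 44.6% (41.1 to 48.2) in the highest. CBP held 32.2% (29.1 to 35.4) and 27.7% (24.0 to 31.8) in the lowest band, where the intervals also overlap, and 77.2% and 53.1% in the highest. JUND itself ranked higher where FOSL2 joined it, with a median percentile of 75.6 against 32.8, and the part of that rank in these shares was not tested.

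Distance to C/EBP graded the cofactors further, although by the rule no ATF2/AP-1 site touched a C/EBP window. The nearest C/EBP window lay a median of 17621 bp away, 744 sites (9.01%) had one within 1000 bp and 904 sites had none within 100000 bp. Sites with C/EBP less than 300 bp away were held by untreated CBP at 62.2% (56.6 to 67.4), by p300 at 57.2% (51.6 to 62.7) and by NCOR at 57.6% (51.95 to 63.0). At 100000 bp or more these shares were 40.9% (37.8 to 44.2), 37.3% (34.2 to 40.5) and 37.2% (34.1 to 40.4). Untreated MED1 in replicate 1 went from 29.9% to 13.05%, and in replicate 2 from 17.4% to 5.75%. The ATF2 peaks ranked higher near C/EBP too, with median percentiles of 65.8 and 52.2 in the nearest and the farthest band, and the part of ATF2 rank in these differences was not tested.

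**Figure D3:**
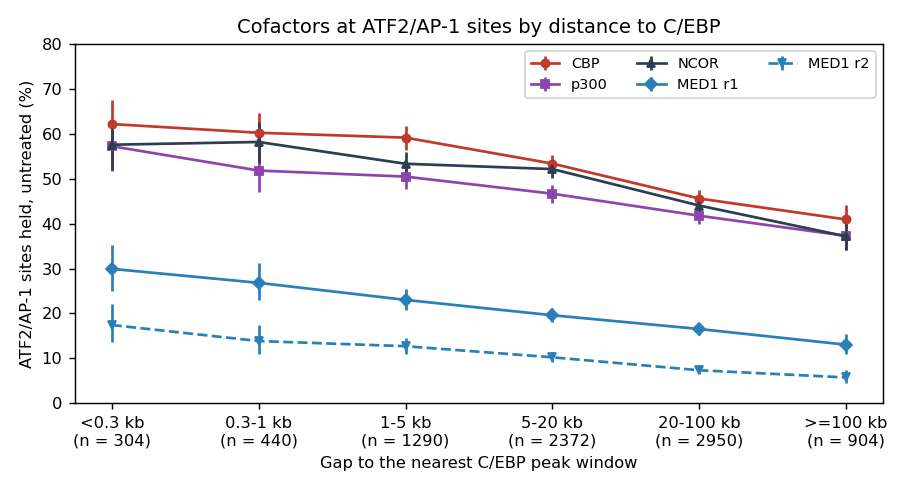
Share of the ATF2/AP-1 sites held by each untreated cofactor list, in percent, against the gap in kb to the nearest CEBPa or CEBPb window in 6 bands, with 95% Wilson intervals. All 5 lists hold the largest shares in the bands under 1000 bp and the smallest at 100000 bp or more, where CBP is at 40.9% and MED1 in replicate 1 at 13.05%.

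After rosiglitazone the ATF2/AP-1 sites in the CBP list were fewer. CBP held 4198 of them untreated and 2726 after the drug, 50.8% and 33.0% (32.0 to 34.0), a log2 ratio of -0.62. It was at 2399 sites in both conditions, at 1799 (21.8%) untreated only and at 327 (3.96%) after rosiglitazone only. Over all factor sites, 12.0% were untreated only and 2.41% rosiglitazone only. The whole CBP list was shorter after the drug, by a log2 ratio of -0.69, from 15383 to 9515 peaks. With both lists taken at their 9515 highest-scoring peaks, CBP held 33.9% and 33.0% of the sites, a log2 ratio of -0.041. Such a cut evens the lists whatever made 1 of them shorter. Whether read depth or less binding made the CBP list shorter was not tested. With 1 CBP list per condition there is no replicate and no test.

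In the lists as deposited, the log2 ratio of CBP at the ATF2/AP-1 sites was close to that over all factor sites, -0.63, and differed from that of single classes. It was -0.62 at ATF2/AP-1 sites, -0.27 where C/EBP was present too, -1.11 at ATF2 alone and -1.17 at AP-1 without ATF2. At equal list length the same classes gave -0.041, -0.094, 0.012 and 0.242, so the order of the classes did not hold. The ATF2/AP-1 sites kept 57.2% of their untreated CBP (55.6 to 58.6) in the lists as deposited, near the 55.7% of all factor sites and the 56.3% of sites with ATF2 and C/EBP but no AP-1. Sites with ATF2, AP-1 and C/EBP kept 79.4% and sites with ATF2 alone 35.3%. At equal length the ATF2/AP-1 sites kept 71.3%, against 84.5% with C/EBP too and 54.4% at ATF2 alone.

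p300 was held at 45.15% of the ATF2/AP-1 sites untreated and 37.1% (36.1 to 38.2) after rosiglitazone, 3729 and 3067 sites, a log2 ratio of -0.28. Minus the ratio over all other factor sites it was -0.108 (-0.148 to -0.068). With the upper 50% of every list this difference became -0.00717 (-0.072 to 0.056). The intervals of this difference carry only the counting error of the rosiglitazone share at the ATF2/AP-1 sites. They take the untreated share and the ratio of the other sites as exact. p300 has no replicate, so the difference was not tested. p300 was untreated only at 1265 sites (15.3%) and rosiglitazone only at 603 (7.30%), where all factor sites had 8.55% and 5.22%. The p300 list itself was shorter by a log2 ratio of -0.13. At equal length the ATF2/AP-1 sites were at 42.4% and 37.1%, a log2 ratio of -0.193, and sites with ATF2 alone were at 18.6% and 19.9%, a log2 ratio of 0.096. NCOR held 48.3% and 50.8% (49.7 to 51.8), 3991 and 4193 sites, a log2 ratio of 0.07 that became -0.034 at equal length. It was untreated only at 799 sites (9.67%) and rosiglitazone only at 1001 (12.1%), where all factor sites had 6.17% and 8.81%.

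**Figure D4:**
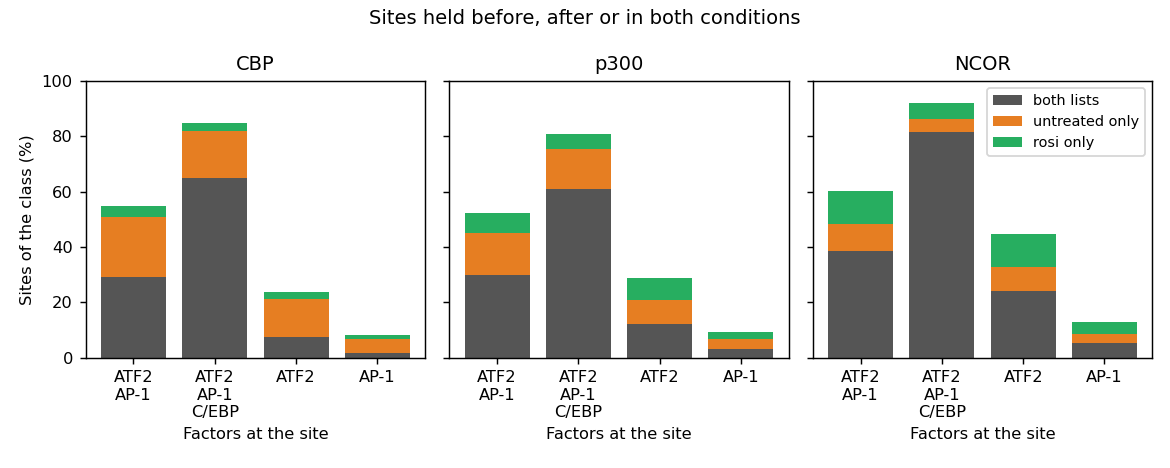
Percent of sites of each class held by CBP, p300 or NCOR in both conditions (grey), in the untreated list only (orange) or in the rosiglitazone list only (green), stacked, from 1 list per condition as deposited. At the ATF2/AP-1 sites, the first bar of each panel, 21.8% are untreated only and 3.96% rosiglitazone only for CBP, against 9.67% and 12.1% for NCOR.

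CBP was kept more often at sites that held other cofactors and high-ranking ATF2 peaks. Of the ATF2/AP-1 sites with CBP untreated, in the lists as deposited, 67.3% of those that also held p300 (65.5 to 69.0) still had CBP after rosiglitazone, against 36.1% of those without p300 (33.6 to 38.7). The shares were 74.7% and 47.4% with and without MED1 in an untreated list, and 65.1% and 41.9% with and without NCOR. By ATF2 rank the share kept was 34.1% in the lowest band and 72.2% in the highest. By AP-1 subunit it was 60.7% with JUND and FOSL2, 52.4% with JUND and no FOSL2, and 42.9% with FOSL2 and no JUND. NCOR, of which 79.98% was kept in all, was kept at 69.1% of sites in the lowest ATF2 band and 86.5% in the highest.

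Of the 1799 ATF2/AP-1 sites with CBP untreated only, p300 was likewise untreated only at 454, in both conditions at 473, rosiglitazone only at 145 and in neither at 727. p300 was thus untreated only at 25.2% of these sites, against 13.7% of the sites with CBP in both conditions and 11.5% of the sites with CBP in neither. Where C/EBP was present too, p300 was untreated only at 26.1% of the sites with CBP untreated only. These shares count sites without p300 untreated as well. Where CBP was in both conditions, p300 was untreated only at 329 sites and in both conditions at 1577. Where CBP was in neither, these counts were 429 and 277. Among sites with p300 untreated, p300 was therefore most often untreated only where CBP was in neither condition. Of the 2124 sites that held CBP, p300 and NCOR untreated, 1177 (55.4%) held all 3 after rosiglitazone, 273 held p300 and NCOR without CBP, and 202 held NCOR alone. Of the 728 sites with CBP as the lone cofactor of the 3, 350 (48.1%) held none of the 3 afterwards. Such moves were counted at ATF2/AP-1 sites only, so whether they are particular to these sites is not known. Sites with all 3 made up 25.7% untreated and 18.9% after the drug, against 14.9% and 11.2% of all factor sites. Sites with NCOR as the lone cofactor numbered 745 (9.02%) untreated and 1439 (17.4%) after the drug, when the CBP list was shorter, against 11.2% and 16.95% of all factor sites.

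MED1 at the ATF2/AP-1 sites did not differ between conditions beyond the spread of its lists. The rosiglitazone lists held 1835 and 831 sites (22.2% and 10.1%) and the untreated lists 1577 and 790 (19.1% and 9.56%), replicates 1 and 2 in that order. The means were 16.1% ± 8.60 (SD, n = 2 lists) and 14.3% ± 6.74 (SD, n = 2 lists), and the groups overlapped. The log2 ratio of rosiglitazone over untreated was 0.15, with an exact permutation p of 0.667, where 2 lists against 2 cannot give less than 0.333. Both replicate pairs were higher after the drug, by log2 ratios of 0.22 and 0.07. The whole MED1 lists were longer by log2 ratios of 0.51 and 0.61, and at equal length the pairs gave -0.231 and -0.299. Against all other factor sites the log2 ratio at ATF2/AP-1 sites differed by -0.185 (exact permutation p = 0.667), and by -0.158 and -0.212 within the pairs. Against ATF2 alone the difference was -0.49, with the exact permutation p at its lower limit of 0.333, and at equal length the pairs at ATF2 alone gave 0.061 and 0.136.

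The replicates differed more than the conditions. Replicate 1 exceeded replicate 2 by a log2 ratio of 1.00 untreated and 1.14 after rosiglitazone at the ATF2/AP-1 sites. Where C/EBP was present too these ratios were 0.16 and 0.18, and where C/EBP stood without ATF2 or AP-1 they were -0.76 and -0.54. MED1 was in both replicate 1 lists and neither replicate 2 list at 493 ATF2/AP-1 sites (5.97%). It was in both replicate 2 lists and neither replicate 1 list at 40 (0.484%). Over all factor sites these shares were 2.23% and 0.751%, and where C/EBP was present too they were 5.58% and 2.90%. Without rosiglitazone replicate 1 the log2 ratio between conditions was -0.426, and without rosiglitazone replicate 2 it was 0.717. It was 0.644 without untreated replicate 1 and -0.353 without untreated replicate 2. The sign was thus decided by single lists: it turned without rosiglitazone replicate 1 or untreated replicate 2. The difference from all other factor sites was 0.245 without untreated replicate 1 and 0.273 without rosiglitazone replicate 2, and thus turned there.

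MED1 was in at least 1 list at 2901 of the 8260 ATF2/AP-1 sites (35.1%), against 21.35% of all factor sites. As shares of all 8260 sites, 111 (1.34%, 1.12 to 1.62) were gained, meaning in both rosiglitazone lists and neither untreated list, where all factor sites had 1.05%. Another 64 (0.775%, 0.607 to 0.988) were lost, the reverse, where all factor sites had 0.461%. A further 214 (2.59%, 2.27 to 2.96) were constant, in all 4 lists, where all factor sites had 2.38%. The interval of the lost share lay above that of all factor sites (0.405 to 0.525). For the gained share the interval overlapped that of all factor sites (0.965 to 1.145), and for the constant share it did so too. Sites with ATF2 alone had 1.16% gained and 0.322% lost. Where C/EBP was present too, 2.29% were gained and 1.95% (1.57 to 2.40) lost. Sites with ATF2 and C/EBP but no AP-1 had 2.55% gained and 0.931% lost. A lost share above that of all factor sites was thus not particular to the ATF2/AP-1 sites. MED1 was in some list at a larger share of ATF2/AP-1 sites than of all factor sites, and the part of that in these shares was not tested. At equal list length 72 sites were gained and 87 lost, so the excess of gained over lost sites turned around. With 1 list left out, a site needs fewer lists, and the gained and lost counts were 260 and 279 without untreated replicate 1, 154 and 537 without untreated replicate 2, 313 and 176 without rosiglitazone replicate 1, and 754 and 96 without rosiglitazone replicate 2.

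The other cofactors were most frequent at constant MED1 sites. How gained and lost sites differ was not tested, and their shares come from the CBP, p300 and NCOR lists as deposited, of which that of CBP was shorter after the drug. At the 214 constant sites CBP was at 93.5% untreated and 88.8% after rosiglitazone, p300 at 93.5% in both conditions and NCOR at 90.7% and 92.1%. At the 64 lost sites CBP was at 81.3% (70.0 to 88.9) and 48.4% (36.6 to 60.4), present untreated only at 22 sites and after rosiglitazone only at 1. At the 111 gained sites CBP was at 64.0% (54.7 to 72.3) and 60.4% (51.1 to 69.0), untreated only at 15 and rosiglitazone only at 11. Of the sites with CBP untreated, 30 of 52 lost, 56 of 71 gained and 184 of 200 constant sites kept it. All ATF2/AP-1 sites together kept 57.2%. Those with MED1 in an untreated list, as every lost site has by definition, kept 74.7% (72.4 to 76.8). The lost sites were thus near the former share and below the latter, a difference that was not tested. p300 was at 65.8% and 76.6% of the gained sites, with 10 untreated only and 22 rosiglitazone only, and at 84.4% and 78.1% of the lost sites. NCOR was at 81.1% and 86.5% of the gained sites and at 47 and 48 of the 64 lost sites. The median ATF2 percentile was 57.5 at gained, 73.2 at lost and 74.0 at constant sites.

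**Figure D5:**
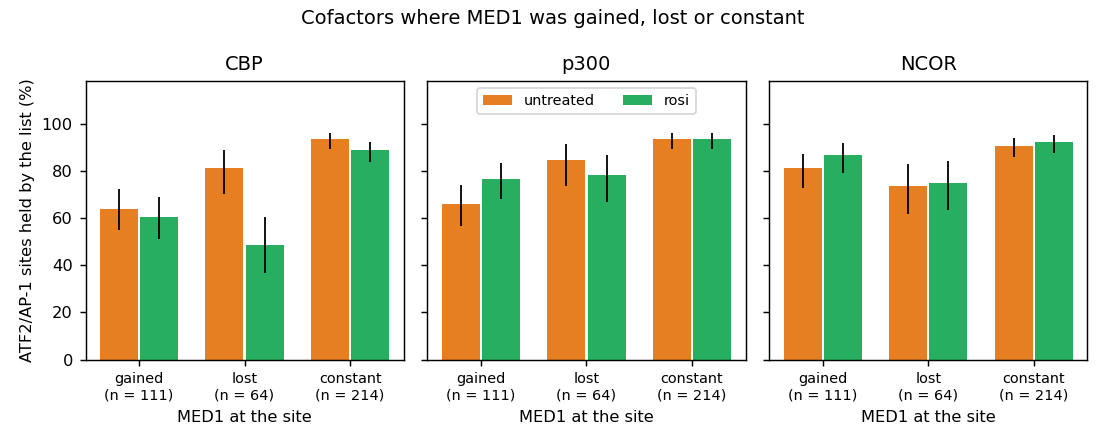
Percent of the gained, lost and constant MED1 sites, all of them ATF2/AP-1 sites, that the CBP, p300 and NCOR lists held, untreated (orange) and after rosiglitazone (green), with 95% Wilson intervals. CBP at the 64 lost sites is at 81.3% and 48.4%, while at the 111 gained sites it is at 64.0% and 60.4%. Over all ATF2/AP-1 sites, not drawn here, it is at 50.8% and 33.0%.

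Single sites show the range, with positions in mm8 counted from 1 and the authors' scores compared within a list only. The ATF2/AP-1 site with the highest mean factor percentile, chr6:52755223-52755446, had scores of 8.28 for ATF2, 15.37 for JUND and 24.49 for FOSL2 and lay 35565 bp from C/EBP. It was in all 6 CBP, p300 and NCOR lists and in no MED1 list. At chr3:126982057-126982290 the factors scored 4.30 for ATF2, 8.96 for JUND and 9.73 for FOSL2, and no cofactor list held it. A site with strong factor peaks could thus be missing from all 10 cofactor lists, which does not show that the cofactors were absent.

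The highest-ranked gained site, chr13:51883717-51883931, held ATF2 at 6.67 and JUND at 3.32 without FOSL2. MED1 scored 6.57 and 5.96 in the rosiglitazone lists, p300 scored 2.61 after the drug and was not listed untreated, NCOR scored 3.45 and 4.84, and CBP was not listed. At chr17:10336496-10336789, with FOSL2 and no JUND, MED1 was likewise gained, at 3.67 and 4.77, p300 was listed after rosiglitazone only, at 3.71, and CBP untreated only, at 2.06. The highest-ranked lost site, chr6:115500245-115500523, also held FOSL2 and no JUND. MED1 scored 2.70 and 4.55 in its untreated lists, CBP was listed untreated only, at 3.65, and NCOR was listed in both conditions, at 2.56 and 3.35.

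The constant site chr7:79608161-79608418 lay 1696 bp from C/EBP and was in all 10 lists, with MED1 at 8.49 and 9.09 untreated and 14.59 and 11.68 after rosiglitazone. CBP was listed after rosiglitazone only at chr6:21960845-21961150, with a score of 3.90, and there p300 and NCOR were listed in both conditions. At chr5:111488312-111488540, with JUND at 12.33 and FOSL2 at 13.56, CBP was listed untreated only, at 5.35, and no MED1 list held the site. p300 was listed after rosiglitazone only at chr6:52090411-52090627, at 5.59, where every cofactor list but that of untreated p300 had a peak. NCOR was listed after rosiglitazone only at chr19:53834345-53834550, at 7.72, and untreated only at chr3:65946725-65946938, at 7.04. Peaks that appear in 1 condition only were thus found at sites with many other cofactor peaks as well as at sites with few.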

How the data were processed

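ChIP-seq peak lists of 15 libraries from 3T3-L1 cells were used. The build is mm8, and the tools named are Bowtie, HOMER and bedtools, per the submitters' processing notes. The tool versions and peak thresholds were not given in the sources used here. Each library has its own list of 200 bp windows, deposited by the authors with a peak score, and scores were used only to rank peaks within a list. Read depth is unknown. The 10 GRO-seq samples and the input were not used here, and without a genome of the files' build neither were sequences or genes.

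Overlapping factor windows (1 bp or more, chained) were joined into sites, and a cofactor held a site when its window overlapped it. At equal length, the lists of a cofactor were cut to the shortest by score. A band of ATF2 refers to percentiles of the whole ATF2 list. Shares carry 95% Wilson intervals. MED1 shares were compared on the log2 scale by exact permutation (2 against 2 lists) and by exact sign-flip tests over 4 lists with Benjamini-Hochberg adjustment over 3 classes. Sites named in the text came from a rule by score percentile: those highest for the factors, for each MED1 class, for each change in CBP, p300 or NCOR, and for the factors without any cofactor. The class rule, the comparison classes and the named sites were chosen with earlier results of these data known. Alternatives were overlap, score, C/EBP distance, both AP-1 subunits, equal length, each MED1 list left out and the replicate block. The code was tested on simulated data. Python 3.11.15, numpy 2.4.6, pandas 2.3.3, scipy 1.17.1 and matplotlib 3.10.9 were used.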

Additional observations from a re-analysis of the deposited data

How the results depend on the processing

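Values are log2 ratios of rosiglitazone over untreated at the ATF2/AP-1 sites unless named as counts. With an overlap of 100 bp, CBP minus all other factor sites was -2.98e-05 (0.0106 as reported) and CBP minus ATF2 alone 0.433 (0.485 as reported). With the upper 50% of every list, 3610 sites qualified, MED1 was gained at 53 and lost at 25, CBP minus other sites was -0.00156, CBP minus ATF2 alone 0.318, p300 -0.231 and p300 minus other sites -0.00717 (-0.108 as reported). Without C/EBP within 1000 bp, CBP minus other sites was -0.00579. With both JUND and FOSL2 required, 4576 sites qualified, with MED1 gained at 45 and lost at 31, CBP at -0.577, CBP minus other sites at 0.0668, minus sites with C/EBP at -0.304 and minus ATF2 alone at 0.531, and p300 at -0.326. At equal list length MED1 was -0.265 with 72 sites gained, CBP -0.0407, p300 -0.193 and NCOR -0.0336, and CBP minus sites with C/EBP was 0.0537 and minus ATF2 alone -0.053. CBP against the C/EBP and ATF2-alone classes was added after seeing the data. With each MED1 list left out, the MED1 ratio ran from -0.426 to 0.717 and that minus other sites from -0.643 to 0.273, with 154 to 754 sites gained and 96 to 537 lost, because fewer lists had to hold or lack a site. The cause of the other differences was not tested. With the replicate number as a block, the MED1 ratio was 0.146 and that minus other sites -0.185. The numbers are only shared labels: deviations of same-numbered lists from their condition means had a correlation of 0.204 over 49656 factor sites, with 2 pairs. Taken pair by pair, as the block does, MED1 gave 867 gained and 609 lost sites for replicate 1, and 502 gained and 461 lost sites for replicate 2. Of all alternative values, 11 changed sign. Another 28 moved beyond the counting error of the rosiglitazone share, or by over 1.5 times for counts, and the other 47 did not. MED1 ratios, however, were judged by direction and test only and reached 0.717. A site missing from a list may be below that list's unknown threshold, so absence is not loss of binding. Read depth is unknown too.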

Other observations

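Some ATF2/AP-1 sites lay near each other. With neighbours joined across gaps of up to 10000 bp, 1032 clusters of 2 or more held 2347 of the sites (28.4%), and the largest held 9. Clusters of other factor sites were not counted, so whether this share is particular to ATF2/AP-1 sites is not known. Untreated CBP was at 58.8% of clustered sites (56.8 to 60.8) and 47.7% of lone ones (46.4 to 48.9), and untreated MED1 in replicate 1 at 25.3% (23.55 to 27.1) and 16.6% (15.7 to 17.6). In replicate 2 these MED1 shares were 11.1% and 8.96%. In the largest cluster, chr1:73929484-73961317, which spans 31834 bp, CBP was at 9 of 9 sites untreated and 3 after rosiglitazone, and p300 at 8 and 7. MED1 was there at 6 sites untreated and 7 after the drug in replicate 1, and at none of the 9 in either replicate 2 list.

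The difference in CBP between the lists as deposited was spread over the genome. The share of ATF2/AP-1 sites with CBP was lower after rosiglitazone on 20 of 20 chromosomes, that with p300 on 19 of 20, and that with NCOR was higher on 17 of 20. The CBP and p300 lists were shorter and the NCOR list longer after the drug, and shares by chromosome at equal list length were not computed. Chromosomes of 1 library pair are not replicates.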
